A study of Mus musculus with 7 samples.

Results

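The interleukin-1 (IL-1) family genes and receptors examined here are Il1a, Il1b, Il1rn, Il1r1, Il1r2, Il1rap, Il1rl1, Il18 and Il33, taken as a list of 9 names and read from the probe set that carries 1 gene symbol. In the platform annotation used here 7 of the 9 had such a probe set, of 19938 genes tested in all. Il1r1, the signalling receptor for IL-1, and Il1rl1, the receptor for IL-33, had none and were not analysed here. Each of the 7 measured genes had a single such probe set, so no choice between probe sets was needed.

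The study ran 7 one-colour Affymetrix arrays on total RNA from intestine of 3-month-old C57Bl6/129Sv mice, either knockout for Atg4b (KO) or wild-type (WT). Atg4b encodes a protease that processes the LC3 and GABARAP proteins needed to form autophagosomes, the vesicles of autophagy. Dextran sulfate sodium (DSS), which injures the colonic epithelium and causes colitis when given in drinking water, was given for 7 days and followed by 3 days of water. The 6 groups were KO DSS-treated colon (2 arrays), WT DSS-treated colon (1), KO control ileum (1), WT control ileum (1), KO control colon (1) and WT control colon (1). Nothing in the labels ties an array to an animal of its own, and the p-values below then cover the spread between arrays, which may be technical. Array medians ran from 121.4 to 126.45 intensity units, and the number of arrays limits the precision.

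IL-1 alpha and IL-1 beta, the products of Il1a and Il1b, bind the same receptor, which recruits the accessory protein encoded by Il1rap and signals through MyD88 to NF-kB. Il1rn encodes the receptor antagonist, which occupies the receptor without signalling, and Il1r2 encodes a decoy receptor without a signalling domain. IL-18 and IL-33 are relatives with receptors of their own: IL-18 is stored as a precursor in intestinal epithelium, and IL-33 is a nuclear alarmin of stromal, endothelial and epithelial cells that is released on injury. Caspase-1 in inflammasomes cleaves the precursors of IL-1 beta and IL-18, and work in mouse macrophages has linked loss of autophagy genes to greater release of both. Arrays measure the mRNA and not the cleaved or released protein.

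The labels were checked first. Atg4b had log2 intensities of 5.39 to 5.45 on the 4 KO arrays and 7.35 to 7.72 on the 3 WT arrays. Xist, the RNA that coats the silenced X chromosome in female cells, was at 12.16 to 12.55 on the 3 DSS arrays and at 5.19 to 5.52 on the 4 control arrays, and the Y-linked Eif2s3y showed the reverse, with 4.28 to 4.39 in DSS and 9.39 to 9.77 in controls. These markers went against the labelled sex on 3 arrays, all WT. Every DSS array thus had the female and every control array the male pattern, so in each DSS comparison below DSS and the sex pattern cannot be told apart. All 10 ileal epithelium markers measured were called higher in ileum and 8 of 9 colon epithelium markers lower, as the tissue labels have it.

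Il1a, Il1b and Il1rn lie on mouse chromosome 2, with Il1a next to Il1b in the RefSeq annotation of GRCm38.p6. Il1r2 lies on chromosome 1, Il1rap on 16, Il18 on 9 and Il33 on 19. The 250 bases upstream of the annotated start are printed for 4 genes, because the first pair moved most with DSS and the second pair differed between ileum and colon. Sequences are RefSeq's, read 5′ to 3′ on the gene's strand, and capitals mark matches to the motifs named after them: Il1a at chr2:129309973-129310222 (minus strand), Il1b at chr2:129371140-129371389 (minus), Il1rn at chr2:24336610-24336859 (plus, the first of 3 annotated starts) and Il18 at chr9:50554450-50554699 (plus).
Il1a: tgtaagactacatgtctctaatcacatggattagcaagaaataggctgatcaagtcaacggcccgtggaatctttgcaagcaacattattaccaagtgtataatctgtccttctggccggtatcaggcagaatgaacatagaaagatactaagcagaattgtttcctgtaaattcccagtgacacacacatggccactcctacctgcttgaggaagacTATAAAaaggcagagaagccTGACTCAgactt
Il1b: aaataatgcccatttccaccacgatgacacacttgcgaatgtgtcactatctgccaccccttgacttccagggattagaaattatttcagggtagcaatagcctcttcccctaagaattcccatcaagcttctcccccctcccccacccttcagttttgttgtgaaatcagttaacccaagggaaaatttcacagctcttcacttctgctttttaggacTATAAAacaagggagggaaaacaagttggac
Il1rn: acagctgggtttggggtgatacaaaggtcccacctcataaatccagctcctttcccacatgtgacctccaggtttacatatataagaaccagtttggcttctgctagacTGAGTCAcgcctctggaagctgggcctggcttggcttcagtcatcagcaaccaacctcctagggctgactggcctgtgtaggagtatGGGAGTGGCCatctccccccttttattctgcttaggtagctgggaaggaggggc
Il18: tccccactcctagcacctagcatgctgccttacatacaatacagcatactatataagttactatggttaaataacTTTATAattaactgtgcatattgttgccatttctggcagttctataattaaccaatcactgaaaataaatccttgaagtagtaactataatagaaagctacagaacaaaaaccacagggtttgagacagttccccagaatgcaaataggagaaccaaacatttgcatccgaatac

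Motifs were searched on both strands as the letters TATAAA (the box that places the start of transcription), GGGNNNNNCC (the frame of NF-kB sites), TGANTCA (AP-1) and TTGCNNAA (C/EBP). Il1a and Il1b both held TATAAA on the sense strand, from base -32 to -27 and from -31 to -26 before the start. Of 32851 promoter windows of the same length in RefSeq, 12.4% held TATAAA on either strand and 1.99% held it on the sense strand with its first base between -40 and -20. Il1a also held TGACTCA at -12 to -6, and Il1rn held TGAGTCA at -141 to -135 and GGGAGTGGCC at -54 to -45. TGANTCA occurred in 6.75% of all windows and GGGNNNNNCC in 45.8%. In Il18 the single match was TTTATA, which is the first motif on the opposite strand, at -175 to -170. The Il1r2 window held none of the 4 motifs. Of the 2 Il33 windows, the first held TATAAA at -203 to -198 and the second held it at -29 to -24 and TTGCATAA at -85 to -78, and TTGCNNAA occurred in 9.56% of all windows. The Il1rap window held several matches to the NF-kB frame. No 2 motifs overlapped in the printed windows, and a match of letters is a description and not evidence of binding.

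Across the 7 arrays the 7 genes ranged very differently. Il1a spanned 5.56 log2 units, Il1b 5.12 and Il1rn 3.42. Il33 spanned 2.19, Il18 2.09, Il1r2 1.81 and Il1rap 0.44. The only replicate pair, KO DSS colon, differed by 0.46 for Il1a and by 0.11 to 0.20 for the other 6. For Il1a the WT ileum and both control colons lay within 0.46 of each other, and for Il18 the WT DSS colon and both control colons lay within 0.13, the gap of its KO DSS pair. Il1a and Il1b were highest in DSS colon, Il1rn and Il18 were lowest in ileum, and Il1rap was nearly level.

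**Figure D1:**
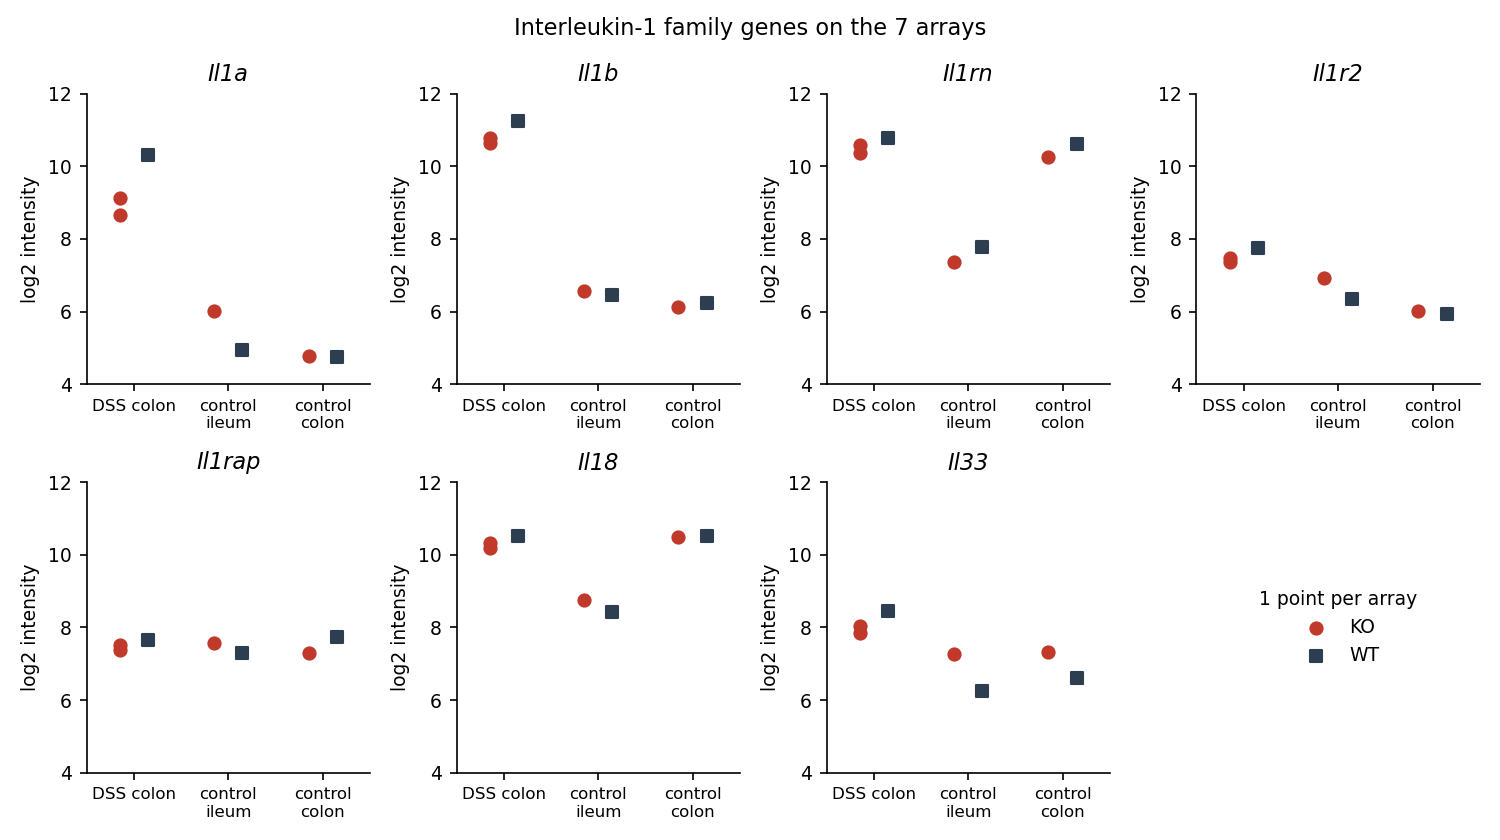
Log2 intensity (y axis) of the 7 measured IL-1 family genes on each of the 7 arrays, by condition (x axis); circles are KO and squares WT arrays, 1 point per array. Il1a and Il1b sit above 8 only in DSS colon, Il1rn and Il18 are lowest in both ileum arrays, and the WT square lies above both KO circles in DSS colon in all 7 panels.

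In DSS-treated colon the mRNAs of both IL-1 agonists and of the decoy receptor rose, while those of the antagonist, the accessory protein and Il18 did not pass the test. Ordered by the size of the rise among 19938 genes, Il1b was of rank 8 and Il1r2 of rank 208. Il1a was of rank 10, but its control colon values were dim and its difference was smaller, at 3.28, with 50 intensity units added before log2. Of the 7 genes 3 were called higher and 0 lower by limma at an adjusted p under 0.05, against 7.2% of all genes called higher and 3.43% lower. The median difference was 1.09 over the 7 genes and -0.01 over all genes tested. In bulk tissue, fewer cells of a type and less RNA per cell cannot be told apart.

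Il1b had a log2 intensity of 10.76 and 10.64 in KO DSS colon and 11.25 in WT DSS colon, against 6.13 in KO and 6.24 in WT control colon. All 3 DSS arrays lay more than 4 log2 units above both controls. The fitted difference was 4.73 ± 0.17 log2 units (SE, 3 DSS against 2 control arrays; limma adjusted p = 0.000139), a 26.6-fold rise with a 95% interval from 20.2 to 35.1. The call held under every alternative setting tried, with differences from 4.02 to 4.82.

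Il1a, which is active as a precursor and serves as an alarm signal from damaged cells, had 8.67 and 9.13 in KO DSS colon and 10.31 in WT DSS colon, against 4.77 in KO and 4.75 in WT control colon. The groups did not overlap, and the DSS arrays varied among themselves by more than for any other of the 7 genes. The difference was 4.65 ± 0.51 (adjusted p = 0.00507 by limma), 25.1-fold with a 95% interval from 10.7 to 58.9. Both control values lay below the lower quartile of gene values on their arrays, and with 50 intensity units added before log2 the difference was 3.28. The call was lost when either control colon array was left out, with 4.85 (adjusted p = 0.0750) without the KO and 4.49 (adjusted p = 0.0774) without the WT array.

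Il1r2, the decoy receptor carried by neutrophils, monocytes and some other cells, had 7.37 and 7.48 in KO DSS colon and 7.74 in WT DSS colon, against 6.0 in KO and 5.93 in WT control colon. The groups did not overlap. Its difference was 1.55 ± 0.20 (limma adjusted p = 0.00796), a 2.94-fold rise. This call was lost too, with 1.56 (adjusted p = 0.0944) once the KO control array was left out and 1.55 (adjusted p = 0.0894) once the WT control array was.

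Il33 had 7.85 and 8.04 in KO DSS colon and 8.44 in WT DSS colon, against 7.32 in KO and 6.62 in WT control colon. The 3 DSS arrays again lay above both controls, but the controls differed from each other by 0.70. The difference of 1.09 ± 0.33 did not pass (adjusted p = 0.0910 by limma). With 1 array left out at a time it ranged from 0.55 (without the WT DSS array) to 1.40, and over all alternatives the adjusted p reached 0.369. It passed without KO DSS replicate 1 (1.28, adjusted p = 0.0352) and with the labelled sex as a covariate (1.23, adjusted p = 0.00766), a label that the sex markers contradict on 3 arrays. With Il1a, Il1b and Il1r2, this made 4 of 7 genes whose DSS arrays all lay above both control colons, against 22.1% of all genes.

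Il1rn had 10.37 and 10.57 in KO DSS colon and 10.78 in WT DSS colon, against 10.25 in KO and 10.60 in WT control colon. These ranges overlapped. The difference was 0.20 ± 0.11, with a 95% interval from -0.06 to 0.46 (limma adjusted p = 0.301), so a rise in Il1rn of the size seen for Il1a or Il1b lay outside its interval. Il18 had 10.19 and 10.32 in KO DSS colon and 10.51 in WT DSS colon, against 10.49 in KO and 10.52 in WT control colon, a difference of -0.16 with an interval from -0.52 to 0.20. Il1rap had 7.53 and 7.39 in KO DSS colon and 7.66 in WT DSS colon, against 7.29 in KO and 7.73 in WT control colon, a difference of 0.03 with an interval from -0.37 to 0.44. Neither of these passed, with limma adjusted p-values of 0.576 for Il18 and 0.936 for Il1rap.

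**Figure D2:**
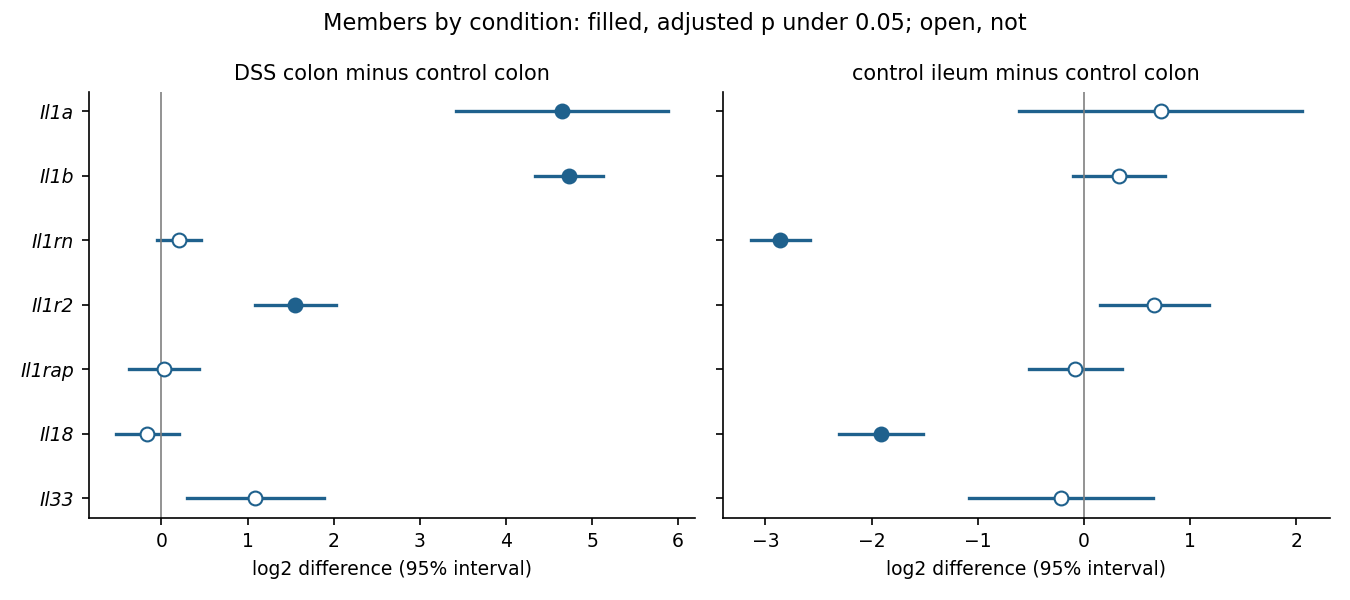
Fitted log2 differences (x axis) of the 7 genes (y axis) for DSS colon minus control colon and for control ileum minus control colon; points are limma estimates, lines 95% intervals, and filled points have an adjusted p under 0.05. Il1a, Il1b and Il1r2 are filled on the right of 0 for DSS, and Il1rn and Il18 are filled on the left of 0 for ileum.

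Leukocyte markers moved with these genes. The summed intensity of 18 neutrophil markers measured of 20 listed was 9372, 11412 and 12716 in KO DSS replicate 1, KO DSS replicate 2 and WT DSS colon, against 7146 in KO and 7428 in WT control colon. Ly6g made up most of the control sums, and without it (a choice made after its values were seen) they were 3229, 4038 and 3844 in the same DSS arrays, against 1417 and 1631 in the KO and WT control colon. In limma 10 of the 18 neutrophil markers were higher with DSS, among them S100a8 and S100a9, the calprotectin subunits. Those not called included Mpo (-0.09), Elane (0.04), Camp (-0.34) and Ngp (0.49). For this and the lists that follow, the shares of all genes were 7.2% higher and 3.43% lower. Of 18 monocyte and macrophage markers 9 were higher and 1 lower, and their sum was 7247 to 8062 in DSS colon against 4384 to 5222 in control colon. Of 14 smooth muscle markers 0 were higher and 4 lower (Acta2, Des, Tpm1 and Tpm2), and of 14 epithelial markers 1, the keratin Krt20, was higher and 0 lower. Of 9 colon epithelium markers 1, the glycosyltransferase B3galt5, was higher and 4 lower, namely the water channel Aqp8 (-0.96), the anion exchanger Slc26a3 (-0.92), Hoxd10 (-2.35) and Hoxd11 (-1.71), with a list median of -0.92. Mast cell markers, of cells known to respond to IL-33, had 2 of 11 higher (Hdc and Mcpt2), but 6 of the 11, among them the protease Cpa3 and the IgE receptor subunits Fcer1a and Ms4a2, lay below the lower quartile on all 7 arrays. The endothelial sum over 10 markers was 2086 to 2847 in DSS colon against 2239 to 2469 in control colon. The part of these markers in the rise of Il1a, Il1b and Il1r2 was not tested.

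**Figure D3:**
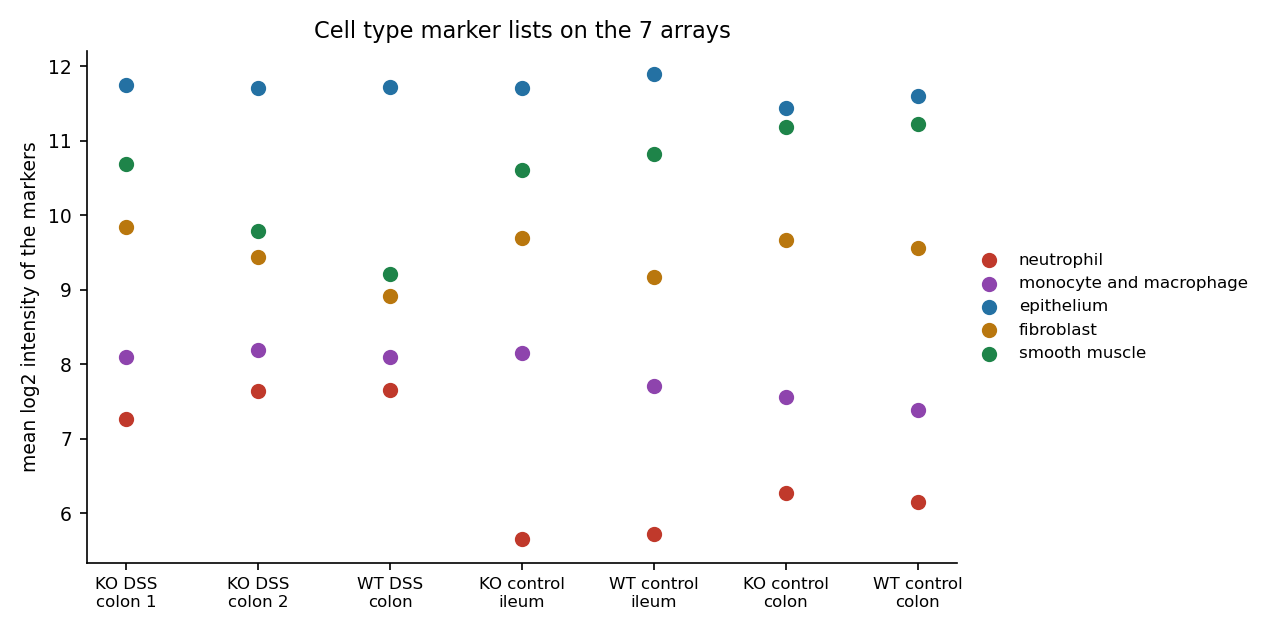
Mean log2 intensity (y axis) of 5 lists of cell type markers on each of the 7 arrays (x axis), 1 point per list and array. Neutrophil markers are highest on the 3 DSS arrays, and among the DSS arrays the smooth muscle and fibroblast points are highest in KO replicate 1 and lowest in WT.

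Other genes of the IL-1 system were read from 4 lists. Among the other family ligands and receptors 2 of 12 measured genes were higher in DSS colon and 0 lower, with a median difference of 0.16. Of all genes tested 7.2% were called higher and 3.43% lower. These were Il1f9, an agonist of the IL-36 branch of the family, at 2.07 ± 0.30 (limma adjusted p = 0.0114), and Il18bp, the soluble inhibitor that captures IL-18, at 1.33 ± 0.18 (adjusted p = 0.00985). Il18rap, the accessory chain of the IL-18 receptor (0.65 ± 0.23), its partner Il18r1 (0.25 ± 0.11) and Sigirr, an inhibitory receptor of epithelium (0.34 ± 0.10), did not pass, with limma adjusted p-values of 0.130, 0.216 and 0.0822.

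Of 36 measured genes for signalling below the receptor 14 were higher and 2 lower, with a median of 0.39. The shares of all genes were 7.2% higher and 3.43% lower, here and for the maturation list below. The 4 with the greatest differences were Zc3h12a, an RNase that degrades cytokine mRNAs (1.38 ± 0.26), Rel, an NF-kB subunit (1.12 ± 0.24), Nfkbiz, an IL-1-inducible NF-kB cofactor (1.06 ± 0.17), and Myd88, the receptor's adaptor (1.03 ± 0.12). The lower pair, named after their values were seen, were the ubiquitin ligase Peli2 at -0.80 and the kinase Map2k6 at -0.67. Of 29 genes for maturation and release 8 were higher and 1 lower (Txnip, a thioredoxin inhibitor, at -0.58), with a median of 0.05. Those higher included the inflammasome sensor Nlrp3 (1.73 ± 0.30), the inflammatory caspase Casp4 (1.05 ± 0.10), the pore-forming Gsdmd (0.94 ± 0.16) and the inflammasome adaptor Nlrc4 (0.78 ± 0.17). Casp1, which cleaves the IL-1 beta and IL-18 precursors, had a difference of 0.29 ± 0.12 that did not pass (limma adjusted p = 0.193).

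Of 34 known targets of IL-1 signalling, most of which other inflammatory signals also induce, 20 were higher and 0 lower, with a median of 1.11. The shares of all genes were again 7.2% higher and 3.43% lower. The greatest differences were those of Nos2, the inducible nitric oxide synthase (5.46 ± 0.37), Saa3, an acute-phase protein (4.77 ± 0.20), Cxcl10, a T cell chemokine that interferon induces (4.36 ± 0.17), and Cxcl2, a neutrophil chemokine (3.76 ± 0.27). The control colon values of Cxcl2, Il1f9 and Nlrp3 lay under the lower quartile of their arrays, and with 50 intensity units added before log2 their differences were 2.65, 1.23 and 1.08. With that offset the calls of Nlrp3 (limma adjusted p = 0.0646), Zc3h12a (0.0592), Rel (0.0704) and Nlrc4 (0.0735) were lost. Of 15 named genes of the 4 lists called higher in DSS colon, 4 were still called without the KO control colon (Nos2, Saa3, Cxcl10 and Cxcl2) and 5 without the WT control colon (these and Casp4).

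**Figure D4:**
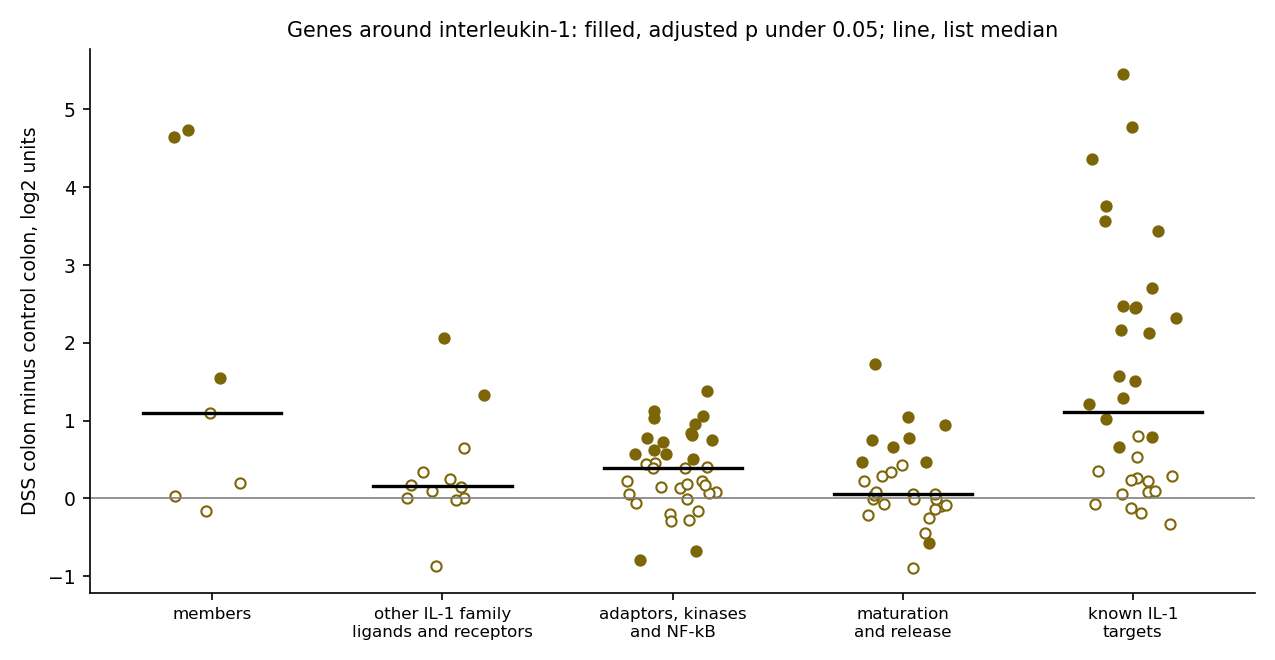
Log2 difference of DSS colon minus control colon (y axis) for each gene of the 7 measured IL-1 family genes (members) and of the 4 lists (x axis); 1 point per gene, filled where the limma adjusted p is under 0.05, with a line at each list's median. The known targets have a median of 1.11, near the 1.09 of the 7 genes, and the other family genes have a median of 0.16.

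Between tissues, the mRNAs of the antagonist and of Il18 were lower in control ileum than in control colon, and none of the 7 genes was called higher. The counts of 2 lower and 0 higher stand against 3.22% and 5.94% of all genes (9.16% in either direction), and the median was -0.08 over the 7 genes and -0.02 over all genes. Il1rn had 7.36 in KO and 7.77 in WT ileum, against 10.25 in KO and 10.60 in WT control colon. Both ileum arrays lay far below both colon arrays. The difference was -2.86 ± 0.12 (SE, 2 against 2 arrays; limma adjusted p = 6.54e-05), 7.25-fold lower in ileum, of rank 53 from the bottom among all genes. Il18 had 8.76 in KO and 8.43 in WT ileum, against 10.49 in KO and 10.52 in WT control colon. Again the tissues did not overlap, with a difference of -1.91 ± 0.16 (limma adjusted p = 0.00116), 3.76-fold lower in ileum. Both calls held under every alternative tried.

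Both ileum arrays lay below both control colons for Il1rn and Il18, a pattern found in 28.2% of all genes. The opposite order, found in 25.8% of all genes, held for Il1a, Il1b and Il1r2, none of which passed. Il1r2 had 6.91 in KO and 6.35 in WT ileum, against 6.0 in KO and 5.93 in WT control colon, a difference of 0.66 ± 0.21 (limma adjusted p = 0.127). It was 0.31 (adjusted p = 0.662) without the KO ileum and 1.02 (adjusted p = 0.0488) without the WT ileum. Il1a had 6.02 in KO and 4.94 in WT ileum, and its difference of 0.72 ± 0.55 rested on the KO array: without it the value was -0.21. For Il1b the ileum arrays had 6.57 in KO and 6.46 in WT, a difference of 0.33 ± 0.18. For Il33 the difference was -0.21 ± 0.36 and for Il1rap -0.08 ± 0.18.

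The neutrophil sum was 1041 in KO and 1393 in WT ileum, against 7146 in KO and 7428 in WT control colon. Most of that gap was Ly6g, at 4.95 in KO and 5.11 in WT ileum, against 12.48 in KO and 12.50 in WT control colon. Without Ly6g the sums were 1010 and 1358 in the KO and WT ileum, against 1417 and 1631 in the KO and WT control colon. The epithelial sum was 62945 in KO and 70266 in WT ileum, against 58499 in KO and 61314 in WT control colon. The monocyte and macrophage sum was 9830 in KO and 6002 in WT ileum, against 5222 in KO and 4384 in WT control colon, with 4 of 18 markers higher. The T cell and innate lymphoid sum over 12 markers was 2481 in KO and 1875 in WT ileum, against 1070 in KO and 1125 in WT control colon, with 3 of 12 higher. Of all genes 5.94% were called higher in ileum. The part of these markers in the tissue differences of Il1rn and Il18 was not tested.

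Of the maturation and release list 9 of 29 genes were higher and 5 lower in ileum, where 5.94% of all genes were higher and 3.22% lower. Gsdme, a pore-forming protein that caspase-3 activates, was higher by 3.24 log2 units and Gzmb, a granule protease of cytotoxic lymphocytes, by 2.85. The 5 lower genes, named after their values were seen, were Gsdmc2 (-2.56), Capn2 (-1.05), Txnip (-0.74), Nek7 (-0.66) and S100a13 (-0.65). Of the signalling list 6 of 36 were higher and 1, Peli2, lower, with Zc3h12a at 1.28 and the NF-kB subunit Relb at 0.96. The other family list had 1 of 12 higher, Il18r1 at 0.98. The targets had 2 of 34 higher and 0 lower, near the share of all genes, with Nos2 at 4.62 and the matrix metalloproteinase Mmp10 at 1.98.

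None of the 7 genes passed the test for KO against WT over the 3 conditions. By limma 0 of 7 were called, against 0.00502% of all genes, which is Atg4b alone (-2.15 ± 0.10, adjusted p = 0.00727). At an unadjusted p under 0.05 the count was 1 of 7, against 3.61% of all genes. That gene was Il1rn, at -0.35 ± 0.09 (limma adjusted p = 0.989). Its KO minus WT difference was -0.41 and -0.21 for the KO DSS replicates, -0.41 in ileum and -0.35 in control colon. It was thus lower in KO in all 4 comparisons of 1 array with 1 array, but both DSS comparisons share the same WT array. Of all genes 32.4% had both KO arrays below WT in DSS colon, 52.7% were lower in KO in ileum and 58.6% in control colon. The remaining 6 genes had fitted differences from -0.24 for Il1a to 0.31 for Il33.

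In DSS colon alone, where 2 KO arrays stood against 1 WT array, 0 of 7 genes and 0% of all genes were called lower or higher by limma. At an unadjusted p under 0.05 the count was 3 of 7, against 3.89% of all genes. Il1a differed by -1.41 ± 0.35, with a 95% interval from -2.26 to -0.56, the value of rank 11 from the bottom among 19938 genes. Il1b differed by -0.55 ± 0.17 and Il33 by -0.50 ± 0.18. Atg4b, the gene knocked out, differed by -2.19 ± 0.18 and was not called in this comparison either. The lack of a call here therefore does not show the lack of a difference. The adjusted p was 1 for all 7 genes, and the median was -0.32 over the 7 and 0.01 over all genes. With a single KO DSS array left, the comparison is 1 array against 1 and its spread comes from the control arrays alone. The Il1a difference was then -1.18 (limma adjusted p = 0.475) without KO DSS replicate 1 and -1.64 (adjusted p = 0.0127) without replicate 2.

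Both KO arrays lay below the WT array in DSS colon for all 7 genes. This order held for 32.4% of all genes and for 62.0% of the genes called higher in DSS colon, and all 7 comparisons rest on the same WT array. Il1a was lower than in WT by 1.64 and 1.18 log2 units in KO replicates 1 and 2, whereas 95% of all genes differed by less than 0.768 and 0.396 in these pairs. Il1b was lower by 0.48 and 0.61, Il33 by 0.59 and 0.40, and Il1r2 by 0.38 and 0.27. For Il1rap the 2 gaps were 0.13 and 0.27 and for Il18 0.32 and 0.19. Il1b and Il33 were beyond the bound for 95% of genes in replicate 2 and within it in replicate 1, and Il1rn, Il1r2, Il1rap and Il18 were within it in both.

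In the control tissues the order was different for some genes. Il33 was higher in KO by 1.01 in ileum and by 0.70 in control colon, and 95% of all genes differed by less than 0.478 and 0.520 there. Il1a was higher in KO by 1.07 in ileum and by 0.02 in control colon. Its values in WT ileum and in both control colons lay below the lower quartile of gene values on those arrays. Il1r2 was higher in KO by 0.56 in ileum and by 0.07 in control colon. Il18, Il1rap and Il1b had KO minus WT differences of 0.33, 0.29 and 0.12 in ileum. In control colon theirs were -0.03, -0.44 and -0.11, all within the bounds for 95% of genes. Il1rn alone was lower in KO in ileum. KO above WT in both control tissues with both KO arrays below WT in DSS colon was the order for Il1a, Il1r2 and Il33. This made 3 of 7 genes, against 5.08% of all genes. The share of this order among genes called higher in DSS colon was not computed. Of those genes 62.0% had both KO arrays below WT in DSS colon, against 32.4% of all genes. In control colon the differences of Il1a and Il1r2 were smaller than the median absolute difference of all genes, 0.16, so their sign there is not informative. The DSS part of the order rests on the same WT array for each gene. The control groups are single arrays, with no replicate check.

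**Figure D5:**
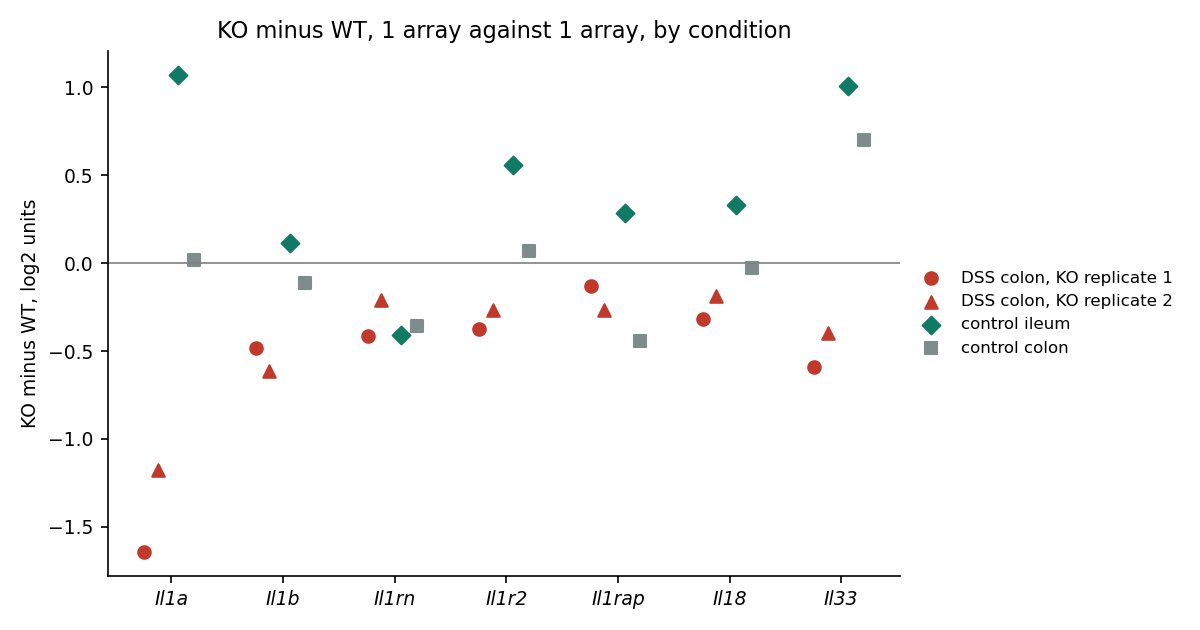
KO minus WT log2 difference (y axis) of the 7 genes (x axis), 1 array against 1 array, in DSS colon for each KO replicate, in control ileum and in control colon. The red DSS points lie below 0 for all 7 genes, and for Il1a, Il1r2 and Il33 both control points lie above 0.

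The difference of the KO effect between DSS colon and controls was tested as an interaction, with the ileum and colon controls pooled. For Il1a, KO minus WT was 1.07 in control ileum and 0.02 in control colon, each from single arrays. With 1 array left out at a time the Il1a interaction ranged from -2.48 to -1.43, so its size depended on single arrays. By limma 0 of 7 genes and 0% of all genes were called. At an unadjusted p under 0.05 the count was 4 of 7, against 3.2% of all genes. Il1a had an interaction of -1.95 ± 0.45, of rank 4 from the bottom among all genes, Il33 of -1.35 ± 0.23, of rank 31, Il1r2 of -0.64 ± 0.25 and Il1b of -0.55 ± 0.21. Their adjusted p was 1.00. With 1 KO DSS array left and the spread from the control arrays alone, Il1a was at -1.72 without replicate 1 (limma adjusted p = 0.234) and at -2.19 without replicate 2 (adjusted p = 0.0130). Il33 was then at -1.25 (limma adjusted p = 0.318) and at -1.45 (adjusted p = 0.0261).

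Within each genotype, where the control is a single array and there is no test, DSS colon minus control colon was 4.13 for Il1a in KO and 5.56 in WT, and 4.57 for Il1b in KO and 5.01 in WT. For Il33 it was 0.63 in KO and 1.83 in WT, and for Il1r2 1.42 in KO and 1.81 in WT. All 4 genes were thus above control colon in both genotypes, by less in KO than in WT, without a call for the difference. For Il1rn the values were 0.22 in KO and 0.18 in WT, for Il18 -0.23 in KO and -0.01 in WT, and for Il1rap 0.17 in KO and -0.08 in WT.

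Other genes of the IL-1 system gave 0 calls by limma when KO was set against WT in DSS colon, in any of the 4 lists. That was so for all genes too. An unadjusted p under 0.05 was found for 7 of the 111 listed genes, against 3.89% of all genes. The order of both KO arrays below WT held for 6 of 12 other family genes (50%) and 23 of 36 signalling genes (63.9%). It held for 7 of 29 maturation genes (24.1%) and 16 of 34 targets (47.1%), against the 32.4% of all genes. Among list genes called higher in DSS colon it held for 1 of 2, 9 of 14, 4 of 8 and 9 of 20. The share was 62.0% over all genes called higher there. Both KO arrays lay above WT for 3, 6, 9 and 9 genes of these lists in the same order, against 34.2% of all genes. Nlrp3 had 6.85 and 6.69 in KO and 7.87 in WT DSS colon, against 5.59 in KO and 5.34 in WT control colon. Il1f9 had 6.85 and 6.81 in KO and 7.84 in WT DSS colon, against 5.33 in KO and 4.96 in WT control colon. Cxcl2 had 8.42 and 8.78 in KO and 9.44 in WT DSS colon, against 5.33 in KO and 5.0 in WT control colon. In these 3 genes, chosen after their values were seen, both KO arrays were lower than the WT array after DSS, as for Il1a, and both control colon values were in the dimmest part of their arrays, under the lower quartile. Of the 7 genes with an unadjusted p under 0.05, Nlrp1b (0.62) and Jun (0.48) had the opposite direction, higher in KO.

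Stromal marker sums were higher in KO than in WT in the same arrays. The smooth muscle sum over 14 markers was 30877 and 16244 in KO DSS replicates 1 and 2 and 10771 in WT DSS colon, and the fibroblast sum over 14 markers was 18250 and 14084 in KO and 9985 in WT. The neutrophil sum without Ly6g was 3229 and 4038 in KO and 3844 in WT. Cd177, the brightest marker in that sum on both KO arrays, had 9.93 and 10.18 in KO and 8.94 in WT. Over the 18 neutrophil markers the median KO minus WT difference was -0.25, against 0.01 over all genes, and 0 were called. The epithelial sum was 63234 and 64847 in KO and 64245 in WT. The order of Il1a in DSS colon, lowest in KO replicate 1 and highest in WT, was the reverse of that of the smooth muscle sum. Il1rn, Il1r2, Il18 and Il33 had the same order as Il1a. Il1b and Il1rap did not, as both were lowest in KO replicate 2. In control ileum, where every measured IL-1 family gene except Il1rn was higher on the KO array, marker sums went both ways. The monocyte and macrophage sum was 9830 in KO and 6002 in WT, and the fibroblast sum 18159 in KO and 11699 in WT. The smooth muscle sum was 29439 in KO and 33421 in WT, and the epithelial sum 62945 in KO and 70266 in WT. The part of these markers in the genotype differences was not tested.

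The genes whose levels followed each IL-1 family gene most closely over the 7 arrays were found by Pearson's r among 9740 genes of above-median level. The arrays share condition, sex pattern and tissue, so r is a description only. Il1a was followed by Csf2rb2, a receptor subunit for myeloid cytokines (r = 0.997), Dhx29, an RNA helicase of translation (0.996), and Ccl3, a myeloid chemokine (0.996). Il1b was followed by Plaur, the urokinase receptor (0.999), Cd274, the immune checkpoint ligand PD-L1 (0.997), and Ywhag, a 14-3-3 protein (0.996). Plaur had 9.14 and 9.07 in KO and 9.34 in WT DSS colon, against 7.08 in KO and 7.18 in WT control colon.

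Il1rn was followed by Anxa3, an annexin (0.996), Ly6g (0.994) and Parm1 (0.993), each lower in both ileum arrays than in colon. Il18 was followed by Hoxa13, a homeobox gene of the distal gut (0.995), Mga (0.992) and St6galnac4, a sialyltransferase (0.992). Il1r2 was followed by Hnrnpab, an RNA-binding protein (0.996), Ms4a6d, a myeloid membrane protein (0.995), and Hcls1, a cortical actin protein of blood cells (0.993). Il33 was followed less closely, by Hnrnph2 (0.985), Ipo7, a nuclear import receptor (0.985), and Slc31a2, a copper transporter (0.977). Il1rap varied too little to be matched.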

How the data were processed

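Intestinal RNA was prepared with RNeasy, labelled with biotin (Affymetrix sense target kit) and hybridised to 1 array a sample, per the labels' protocols. The authors deposited 1 linear intensity per probe set and array, from 10.4 to 22236.4. Their summary and normalization are not given in the sources used, and a shift shared by all genes could have been removed. From them log2 was computed here, with no further scaling. Of 35512 probe sets the platform annotation names 1 symbol for 21789, several for 1621 and none for 12102. For 999 genes with more than 1 probe set the brightest on average was taken, giving 19938 genes.

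Models were fitted with limma 3.58.1 (lmFit, eBayes) in R 4.3.3. P-values were adjusted by Benjamini-Hochberg across the 19938 genes, and 0.05 was the threshold. The first model held condition and genotype (3 residual degrees of freedom) and gave the DSS, tissue and overall KO comparisons. The second let the KO effect differ between DSS colon and controls (2 residual degrees of freedom). Comparisons of 1 array with 1 array have no test.

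The members, gene lists and tests were chosen with earlier results of these data known. By the rule for named genes, all members are named, from each list the 4 called genes with the greatest DSS difference and the 2 with the greatest tissue difference, 7 always-named genes, and the 3 genes of highest Pearson r per member that spanned over 1.5 log2 units. Marker genes and the lower list genes were named after their values were seen. Promoters are RefSeq's for GRCm38.p6, cut to the bases upstream of the start. Alternatives were quantile normalization, centring, an added offset, a filter on dim genes, other probe set rules, labelled sex, a variance trend with robust fit, only the colon arrays, a 6-group model and dropping each array in turn. Figures were drawn with matplotlib 3.10.9.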

Additional observations from a re-analysis of the deposited data

How the results depend on the processing

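The number of arrays limits every call. Without 1 array at a time the genes called for DSS ranged from 183 to 3549 (2120 with all arrays), with 183 without the KO and 216 without the WT control colon, 526 without the WT DSS array, 800 without KO DSS replicate 2 and 3549 without KO DSS replicate 1. Of the 7 members 1 to 4 were then called. For tissue the range was 660 to 2418 (1826 with all arrays) and 2 to 3 members, with 709 (KO) and 1003 (WT) when an ileum array was left out and 660 (KO) and 812 (WT) when a control colon array was. For KO minus WT overall it was 0 to 1 gene: 1 with all arrays and without KO DSS replicate 1, and 0 with any other array left out. For KO minus WT in DSS colon it was 0 to 538 genes and 0 to 1 member, the 538 without KO DSS replicate 2, against 25 without replicate 1. For the interaction it was 0 to 279 genes and 0 to 2 members, the 279 without KO DSS replicate 2, against 18 without replicate 1. A 6-group model called 297 genes for DSS and 764 for tissue. For KO minus WT overall the count was 0 with an offset of 50 and with all probe sets tested. For KO minus WT in DSS colon, 0 in the main model, it was 3 with arrays centred, 2 with the dimmest genes left out and 10 with a variance trend and robust fit, which called 2 for the interaction (0 in the main model). The causes were not tested.

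Of 119 member values under other settings for DSS 109 kept direction and call, of 112 for tissue 106, of 105 for KO minus WT overall 95, of 105 for KO minus WT in DSS colon 104 and of 91 for the interaction 85. Reversed values follow. With quantile normalization they were Il1rap -0.032 and Gsdme 0.0045 for DSS and Il18 0.016 for KO minus WT overall. With centring they were Il1rap -0.0094 for DSS, Cxcl2 -0.0068 for tissue and Il1rn -0.024 for the interaction. Gsdme for DSS was 0.0037 with the offset and 0.0068 with probe sets averaged, and Il1r2 for KO minus WT overall was -0.0029 with labelled sex.

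Some signs also turned with an array left out, and the ranges over arrays were as follows. For DSS they were -0.22 to 0.23 for Il1rap and -0.18 to 0.22 for Gsdme. For tissue they were -0.21 to 1.66 for Il1a, -0.37 to 0.21 for Il1rap, -0.71 to 0.28 for Il33, -0.68 to 0.28 for Il1f9, -0.14 to 0.64 for Il18rap, -0.095 to 0.028 for Sigirr, -0.38 to 0.49 for Nlrp3, -0.040 to 0.73 for Saa3 and -0.39 to 0.46 for Cxcl2. For KO minus WT overall they were -0.80 to 0.54 for Il1a, -0.36 to 0.00089 for Il1b, -0.15 to 0.31 for Il1r2, -0.30 to 0.0089 for Il1rap and -0.16 to 0.15 for Il18. For the interaction they were -0.032 to 0.17 for Il1rn and -0.48 to 0.24 for Il1rap.

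No analysis paired by animal was made, because the labels do not say which arrays, if any, come from the same animal. Labelled sex could not be fitted in the second model, and without the WT DSS array KO minus WT in DSS colon has no value.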
